A study of Mus musculus with 2 samples.

Results

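The mitochondrial genome of the mouse carries 37 genes, and small RNA reads of testis matched all of them. Members were every gene of chromosome M in GENCODE M21 whose name starts with mt-, 37 of 55450 annotated genes. They comprise 22 tRNA genes, 2 rRNA genes and 13 protein-coding genes. A read was counted when its 18 to 32 nt matched a member with 0 mismatches on either strand. The labels describe total RNA of testes taken at 23 dpp from Stambp-ps1+/- and Stambp-ps1-/- mice on a C57BL/6 background, 1 sample of each genotype, with RNA of 15 to 40 nt cut from a gel for directional libraries. The number of mice behind each sample is not stated in the sources used here. The record lists both read tables under the Stambp-ps1-/- sample, while 1 table's name has KO in it and the other's has het. The names KO table and het table below repeat those words and no more, and neither table was put in a genotype group.

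Each table is 1 library without replicates, so no test was run and every difference below compares 2 libraries, not 2 genotypes. There were 54384974 reads in the KO table and 62773871 reads in the other. Levels are given per 1000000 reads of a table (RPM). Intervals are exact 95% intervals (Clopper-Pearson for shares and RPM, conditional binomial for ratios), and the limit set by 3 reads was 0.0552 RPM and 0.0478 RPM in turn. Both cover counting error only, with each read taken as independent. Reads amplified by PCR without molecular identifiers are not independent molecules, so the intervals can be too narrow. Differences in number of cells and in RNA per cell cannot be told apart in whole testis. Reads of 18 nt were 0.774% of the KO table and 2.14% of the het table, and reads of 24 to 32 nt were 79.4% and 74.9%. All 12 testis and germ cell markers found in the annotation had reads in both tables, with summed levels of 26754 and 24246 RPM. The 4 blood markers summed to 68.1 and 45.7 RPM, the 3 muscle markers to 21.8 and 13.2 RPM with 1 of them at 0, and the 2 neural markers to 27.8 and 20.6 RPM, while the liver marker Mir122 was at 0 in both. The part of any of these in the results below was not tested.

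Mitochondrial DNA is transcribed from both strands into long RNAs in which tRNAs stand between the rRNAs and the mRNAs. The tRNAs are cut out by RNase P at their 5′ end and RNase Z at their 3′ end, which frees the neighbouring rRNAs and mRNAs, and the letters CCA are then added to each tRNA. In the germ line, mitochondria lie close to the sites of piRNA biogenesis, and some of its factors, such as Pld6 and Tdrkh, sit on the outer mitochondrial membrane.

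The sequences below show where in each gene its reads lay. Capitals mark the most abundant read of the gene over both tables, the other letters are the rest of the tRNA gene or up to 20 nt on each side within the gene, and all are printed 5′ to 3′ in the sense of the gene from the GENCODE M21 transcripts (GRCm38). GENCODE annotates each as a gene of 1 exon. The 4 tRNAs at the top were the most abundant, and the last 2 lines stand for the protein-coding genes.
mt-Ts2: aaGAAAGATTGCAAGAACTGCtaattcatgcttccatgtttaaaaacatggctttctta
mt-Tm: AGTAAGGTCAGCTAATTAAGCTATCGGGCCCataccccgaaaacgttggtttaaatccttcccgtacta
mt-Tv: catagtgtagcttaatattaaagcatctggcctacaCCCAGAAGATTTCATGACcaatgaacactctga
mt-Ty: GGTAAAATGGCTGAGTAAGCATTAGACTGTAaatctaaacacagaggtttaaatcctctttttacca
mt-Tc: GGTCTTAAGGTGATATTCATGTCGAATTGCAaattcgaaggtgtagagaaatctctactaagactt
mt-Tl1: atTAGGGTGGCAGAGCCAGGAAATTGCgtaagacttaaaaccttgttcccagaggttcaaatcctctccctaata
mt-Rnr1: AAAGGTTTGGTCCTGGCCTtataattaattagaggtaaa
mt-Rnr2: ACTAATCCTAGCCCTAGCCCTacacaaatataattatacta
mt-Co1: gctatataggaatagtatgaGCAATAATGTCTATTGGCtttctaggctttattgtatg
mt-Co2: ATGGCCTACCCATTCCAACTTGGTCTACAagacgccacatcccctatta

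The capitals of mt-Ts2 lie at chrM:11615-11633 on the plus strand, those of mt-Tm at chrM:3845-3875, those of mt-Tv at chrM:1061-1078 and those of mt-Tl1 at chrM:2678-2702, all on the plus strand. For mt-Ty they lie at chrM:5296-5326 and for mt-Tc at chrM:5227-5257, both on the minus strand. On the plus strand the capitals of mt-Rnr1 lie at chrM:70-88, those of mt-Rnr2 at chrM:1094-1114, those of mt-Co1 at chrM:6153-6170 and those of mt-Co2 at chrM:7013-7041. In 6 of these 10 genes the leading read began at the gene's first base, and it began at base 3 in mt-Ts2 and mt-Tl1. The leading read of mt-Ty held 95.6% of the gene's reads, that of mt-Tv 72.6%, that of mt-Co1 8.9% and that of mt-Rnr1 0.926%. The mt-Co2 read was seen only 7 and 2 times and also matches another annotated gene.

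Taken as 1 pool, mitochondrial reads made up the same share of both tables within counting error. There were 50286 in the KO table (925 RPM) and 58233 in the het table (928 RPM), and the ratio was 0.997 (0.985 to 1.01). Inside this pool the classes differed. Sense reads of tRNA genes were 740 RPM in the KO table and 665 RPM in the het table, a log2 ratio of 0.15 (KO table over het table, after adding 0.5 to both counts). Sense reads of rRNA genes were 139 and 191 RPM, a log2 ratio of -0.47. Sense reads of protein-coding genes, written mRNA below, were 34.1 and 56.0 RPM, a log2 ratio of -0.72. Their plain ratios were 1.11 (1.10 to 1.13), 0.723 (0.703 to 0.745) and 0.608 (0.574 to 0.643), so none of the 3 intervals reached another. Scaling to miRNA reads moves every log2 ratio by -0.23, so that the tRNA value turned to -0.08, while those of rRNA and mRNA stayed below 0 under this scaling and under that to reads of 24 to 32 nt, which moves them by -0.08.

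The tRNA class held 80.1% of mitochondrial reads in the KO table and 71.7% in the het table. The rRNA class held 15.0% and 20.6%, the mRNA class 3.68% and 6.04%, and antisense reads of all members 1.27% and 1.61%. Per length the genes with most reads in each class lay further apart, but tRNA genes overlapped with the other classes. The level of mt-Ts2 was 535 RPM per 100 nt in the KO table and 507 in the het table, against 7.46 and 9.31 for mt-Rnr2 and 0.670 and 1.02 for mt-Co1. The tRNA gene mt-Tn, at 1.01 and 0.897, lay below both rRNA genes and in the het table also below mt-Co1.

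**Figure D1:**
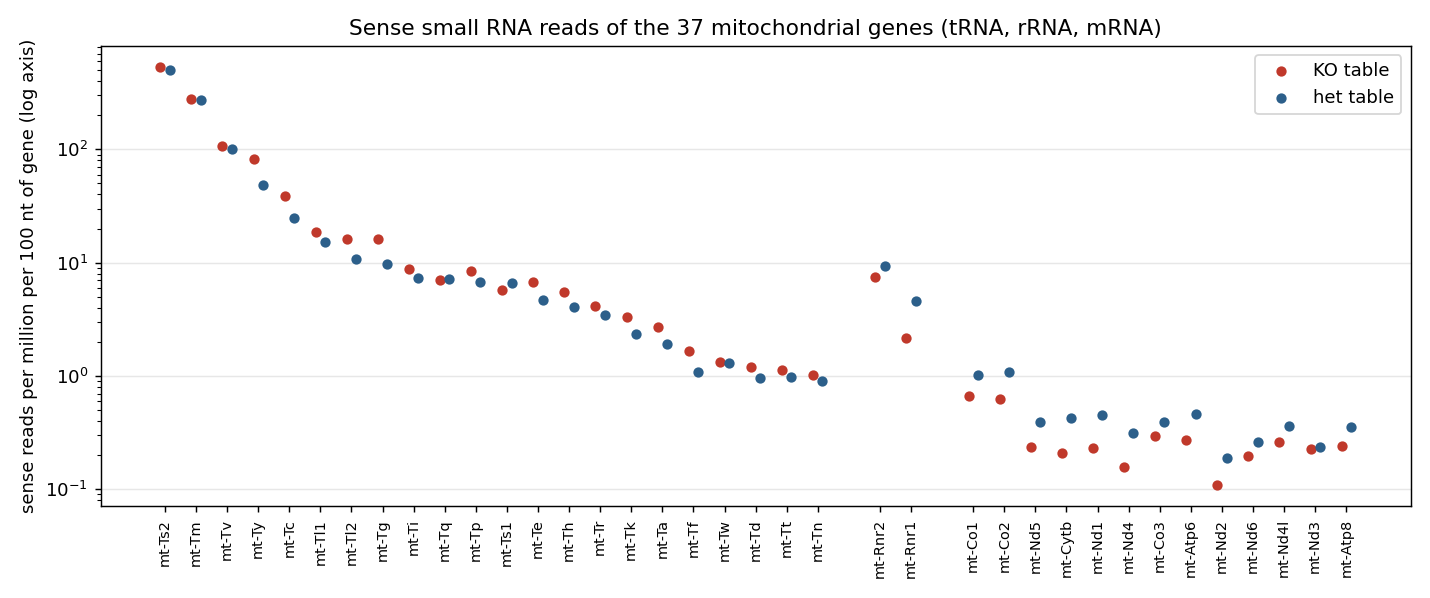
Sense RPM per 100 nt of gene (log axis) for each of the 37 genes, grouped as tRNA, rRNA and mRNA and ordered in each group by total reads; red points are the KO table and blue points the het table. All points of mt-Ts2, mt-Tm and mt-Tv lie above 100, both rRNA genes lie between 2.14 and 9.31, and among mRNA genes mt-Co1 and mt-Co2 stand highest in both tables.

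Among the tRNA genes, 2 supplied most of the reads. The gene mt-Ts2, a serine tRNA, had 17167 reads in the KO table and 18760 in the het table, which is 316 and 299 RPM. The gene mt-Tm, the methionine tRNA that serves both initiation and elongation in mitochondria, had 10506 and 11827 reads, 193 and 188 RPM. Together these made up 68.7% of tRNA reads in the KO table and 73.3% in the het table. Next came mt-Tv (valine) with 4041 and 4368 reads. It was followed by mt-Ty (tyrosine) with 2984 and 2042 and by mt-Tc (cysteine) with 1403 and 1019. Per 100 nt these 5 kept this order in both tables, from 535 and 507 RPM for mt-Ts2 to 39.1 and 24.6 for mt-Tc, and their intervals did not overlap within a table. The levels of mt-Tl2 (leucine, 621 and 484 reads) and mt-Tg (glycine, 594 and 414 reads) were neighbours, at 16.1 and 16.1 RPM per 100 nt in the KO table and 10.9 and 9.70 in the het table. At the lower end mt-Tf, mt-Tw, mt-Ta, mt-Tn, mt-Td and mt-Tt each had under 200 sense reads over both tables, with 79 for mt-Tn as the fewest. This order leaves out reads ending in the CCA tail or a part of it. Over both tables those numbered 422 for mt-Tw and 1581 for mt-Tk, so both would stand higher with them.

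Reads of tRNA genes lay mostly at the 5′ end of the gene. Of 82018 sense reads, 83.7% started in the first 5 bases and 1.36% ended in the last 5 encoded bases. This rested on a few genes: 9 of 22 had over 50% of their reads starting in the first 5 bases, 13 had over 50% inside the gene, and 0 had over 50% at the encoded 3′ end. Without mt-Ts2, mt-Tm and mt-Tv the share starting in the first 5 bases was 72.3%. Reads ending in the CCA tail or a part of it run past the encoded gene, so these shares leave them out. With them counted in, such reads were 8.49% of tRNA reads, but 88.1% in mt-Tk, 80.4% in mt-Tw and 50.2% in mt-Te. For these genes the shares above therefore cannot show a majority at the 3′ end.

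In some tRNAs the 5′ ends of reads were exact to the base. Base 1 was the most used start in 8 of 22 tRNA genes and base 3 in 4. For mt-Ty, 98.3% of reads started at base 1 and 96.5% ended at base 31. For mt-Ts1, the other serine tRNA, 93.4% started at base 1, and for mt-Tq (glutamine) 81.0%. A pair of start sites, at bases 1 and 3, was seen in others. In mt-Ts2, 43.4% of reads started at base 1 and 47.99% at base 3. In mt-Tm these shares were 54.7% and 38.9%, in mt-Tl1 50.7% and 38.0%, in mt-Ti (isoleucine) 41.9% and 37.9%, and in mt-Tp (proline) 40.2% and 56.1%.

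The length of the fragment differed between tRNAs that began alike. Reads of mt-Ts2 ended mainly at base 21, so that 6.98% of them in the KO table and 5.83% in the het table were 24 to 32 nt long. Reads of mt-Tm ended mainly at base 31, and 98.6% and 98.0% were 24 to 32 nt long. The tRNA pool therefore had a peak at 19 nt (24.3% and 24.8% of its reads) and another at 31 nt (18.7% and 18.7%), with under 1% at 24 nt.

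Among reads that lie within the encoded gene, a further group of tRNAs was read from its middle. In mt-Tv 74.6% of reads started at base 37 and 85.9% ended at base 54, the 18-nt stretch in capitals above. In mt-Te (glutamate) 46.6% started at base 38, in mt-Tr (arginine) 26.1% at base 25, in mt-Tg 21.6% at base 34, and in mt-Tf (phenylalanine) 38.9% at base 12.

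**Figure D2:**
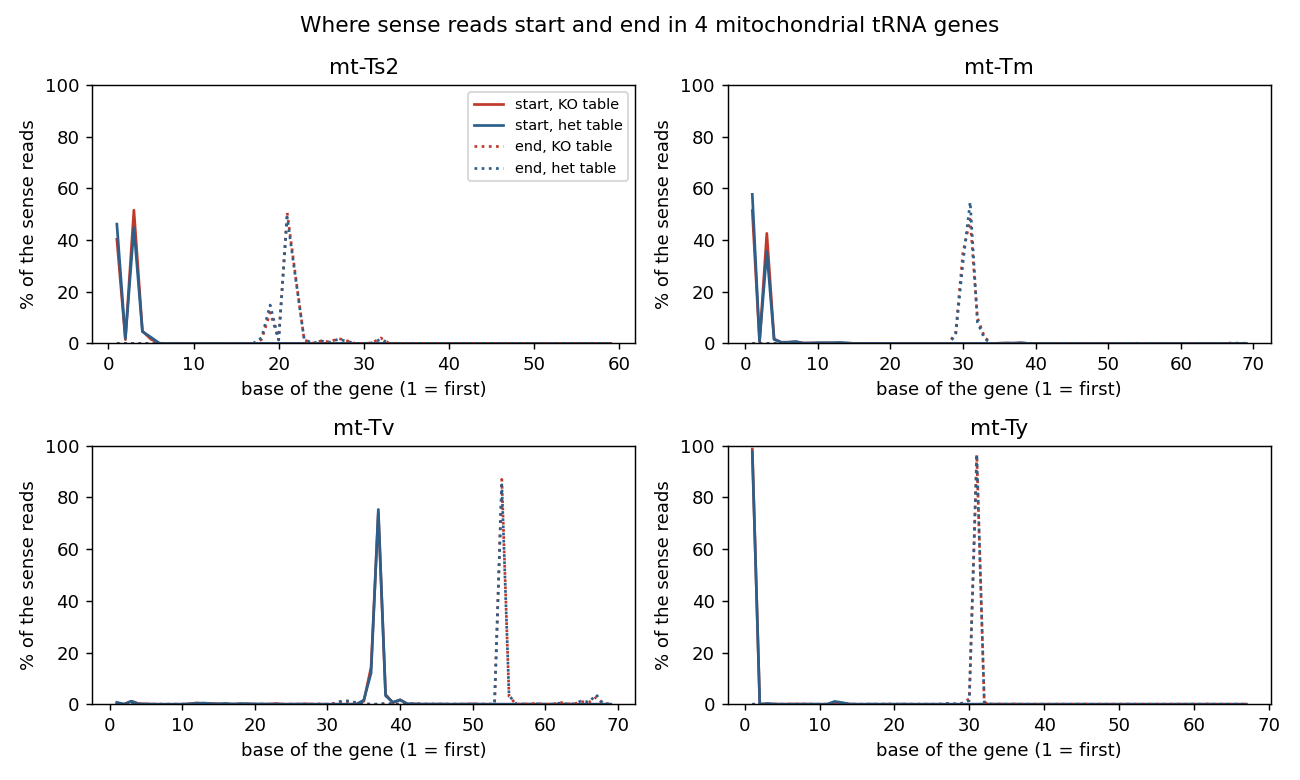
Share of each gene's sense reads (%) that start (solid) or end (dotted) at each base, for mt-Ts2, mt-Tm, mt-Tv and mt-Ty; red is the KO table and blue the het table. The peaks stand at bases 1 and 3 in mt-Ts2 and mt-Tm, at base 37 in mt-Tv and at base 1 in mt-Ty, and the tables share these peaks while their heights differ, among them the mt-Tm ends at base 31 (48.03% in the KO table and 54.7% in the het table).

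The ends of mt-Tv joined those of a read that the encoded gene alone does not match. Reads that run to the end of a tRNA gene and carry CCA behind it were counted apart, because CCA is not encoded. There were 2534 in the KO table and 2531 in the het table (46.6 and 40.3 RPM), of which mt-Tv held 1778 and 1753. Its most abundant one is printed here because it starts at base 55, right behind the 18-nt stretch above, with 765 and 940 reads.
mt-Tv 3′ read with CCA: CAATGAACACTCTGACCA
In mt-Tk (lysine), reads with the tail or a part of it were 88.1% of all its reads and numbered 977 and 604. In mt-Tw (tryptophan) they were 80.4%, and in mt-Te 50.2%. Reads that stopped at the last encoded base of any tRNA, with no tail, numbered 116 and 73 in all. Counting reads with a tail moved the log2 ratio of tRNA reads from 0.15 to 0.18.

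Most tRNA genes stood higher in the KO table, by an amount that depended on the scaling. The level was higher there for 20 of 22 tRNA genes per all reads, for 17 when scaled to reads of 24 to 32 nt and for 14 when scaled to miRNA reads. The interval of the ratio lay above 1 for 14, 8 and 5 of them and below 1 for 0, 2 and 5. The 2 other scalings move every gene down, by -0.08 and -0.23 in log2. Shares of all genes for these counts were computed per all reads only. Per all reads, 12 of the 16 with at least 200 sense reads had an interval above 1, beside 21.2% of all 11041 annotated genes with as many reads. Of these 16, 14 were higher, beside 42.5% of all those genes. For mt-Ty the levels were 54.9 RPM in the KO table and 32.5 RPM in the het table, a log2 ratio of 0.75 with a ratio of 1.69 (1.59 to 1.79). For mt-Tg they were 10.9 and 6.60 RPM, a log2 ratio of 0.73, and for mt-Tc 25.8 and 16.2 RPM, a log2 ratio of 0.67. These 3 stayed above 0 under both other scalings. The leading genes lay near equality, with log2 ratios of 0.08 for mt-Ts2, 0.04 for mt-Tm and 0.09 for mt-Tv, all below 0 when scaled to miRNA reads. Without mt-Ts2 and mt-Tm, the log2 ratio of the remaining tRNA reads was 0.38. The 2 tRNA genes below 0 were mt-Ts1 (-0.21) and mt-Tq (-0.01), and both ratio intervals included 1.

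Start sites within a tRNA also differed in ratio. In mt-Ts2, reads starting at base 1 were 127 RPM in the KO table and 138 RPM in the het table (ratio 0.922, 0.893 to 0.951), while reads starting at base 3 were 163 and 134 RPM (ratio 1.22, 1.18 to 1.25). In mt-Tm the ratios were 0.914 (0.881 to 0.947) at base 1 and 1.22 (1.17 to 1.28) at base 3. Of 6 tRNA genes with at least 100 reads at each site, a set chosen after these values were seen, 4 had the higher ratio at base 3. In 3 of them, mt-Ts2, mt-Tm and mt-Tc, the share of base 3 among both sites had intervals that did not overlap between the tables. In mt-Ti and mt-Tp the order was the opposite, with overlapping intervals. The part of read length in this difference was not tested: in mt-Ts2 the median read was 21 nt from base 1 and 19 nt from base 3.

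**Figure D3:**
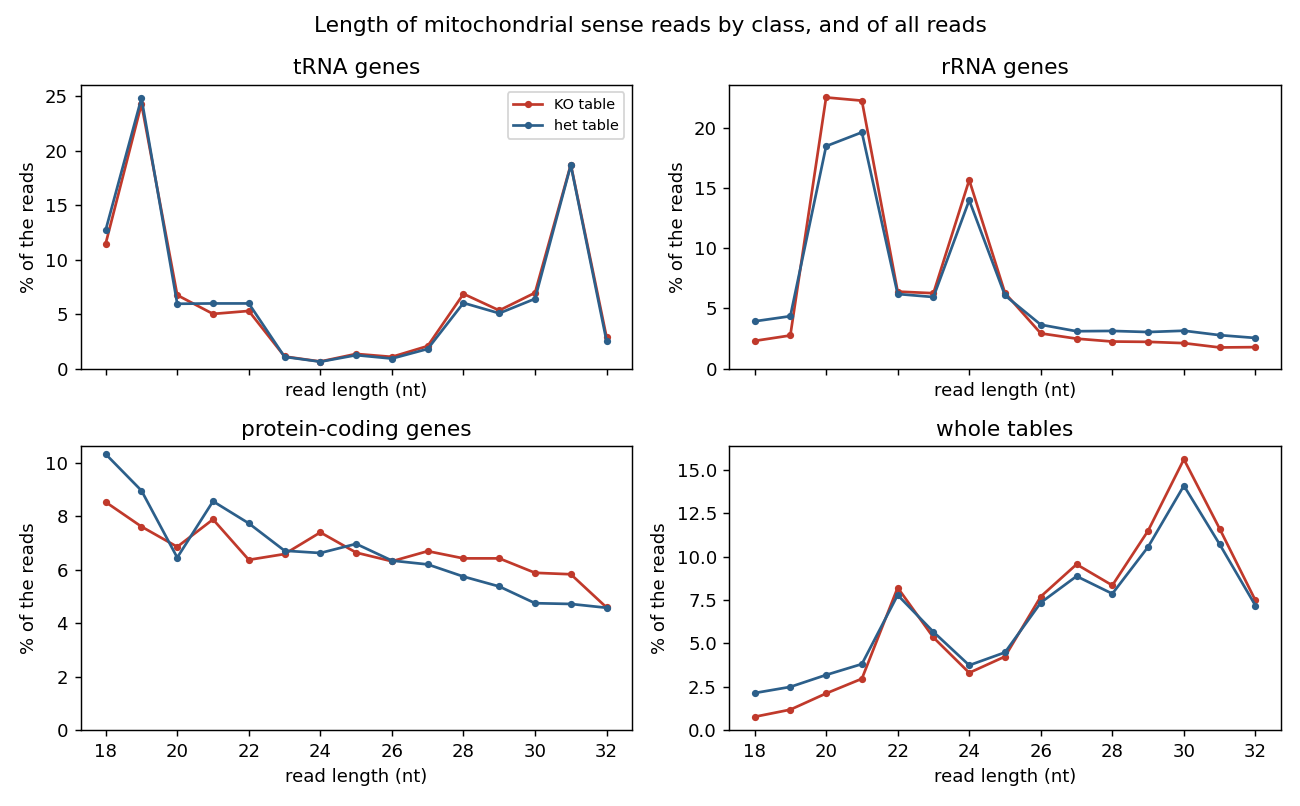
Length distribution (% of the reads at each length in nt) of sense reads of tRNA, rRNA and protein-coding genes of chromosome M and of all reads of the tables; red is the KO table and blue the het table. The tRNA reads peak at 19 and 31 nt, the rRNA reads at 20, 21 and 24 nt, and the mRNA reads decline from 18 nt, while the whole tables peak at 30 nt.

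The rRNA genes, which encode the RNAs of the small (mt-Rnr1) and large (mt-Rnr2) mitochondrial ribosomal subunits, were read in different ways. The gene mt-Rnr2 had 6419 reads in the KO table and 9246 in the het table, 118 and 147 RPM. Of the reads of mt-Rnr2, 71.4% started at its first base, which follows directly on the last base of mt-Tv. The gene mt-Rnr1 had 1114 and 2775 reads, 20.5 and 44.2 RPM. Its reads began at 500 of its 955 bases, and the most used, base 1, held 2.73%. Reads ending in the last 5 bases were 0.236% of mt-Rnr2 and 0.0514% of mt-Rnr1 reads.

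Both rRNA genes were lower in the KO table, and within mt-Rnr2 the reads away from the 5′ end differed more than those at its first base. For mt-Rnr1 the ratio was 0.463 (0.432 to 0.497), a log2 ratio of -1.11. For mt-Rnr2 it was 0.801 (0.776 to 0.827), a log2 ratio of -0.32. Both stayed below 0 under the other scalings. Reads at the first base of mt-Rnr2 numbered 4958 and 6229, with a ratio of 0.919 (0.885 to 0.954). Reads starting later in mt-Rnr2 numbered 1461 and 3017, with a ratio of 0.559 (0.525 to 0.595). Without the first-base reads of mt-Rnr2, the log2 ratio of the rRNA class was -0.96 in place of -0.47.

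The lower level of rRNA reads in the KO table ran along both genes. In bins of 50 nt, it was lower in 19 of the 19 bins of mt-Rnr1 with reads and in 30 of 32 bins of mt-Rnr2. The interval of the ratio lay below 1 in 17 and 22 of these bins. In mt-Rnr1 the bin from base 501 to 550 held most reads, 220 and 558, or 19.7% and 20.1% of the gene's reads. The leading read of mt-Rnr1, 19 nt from base 1, was seen once in the KO table and 35 times in the het table, a ratio that few reads carry.

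**Figure D4:**
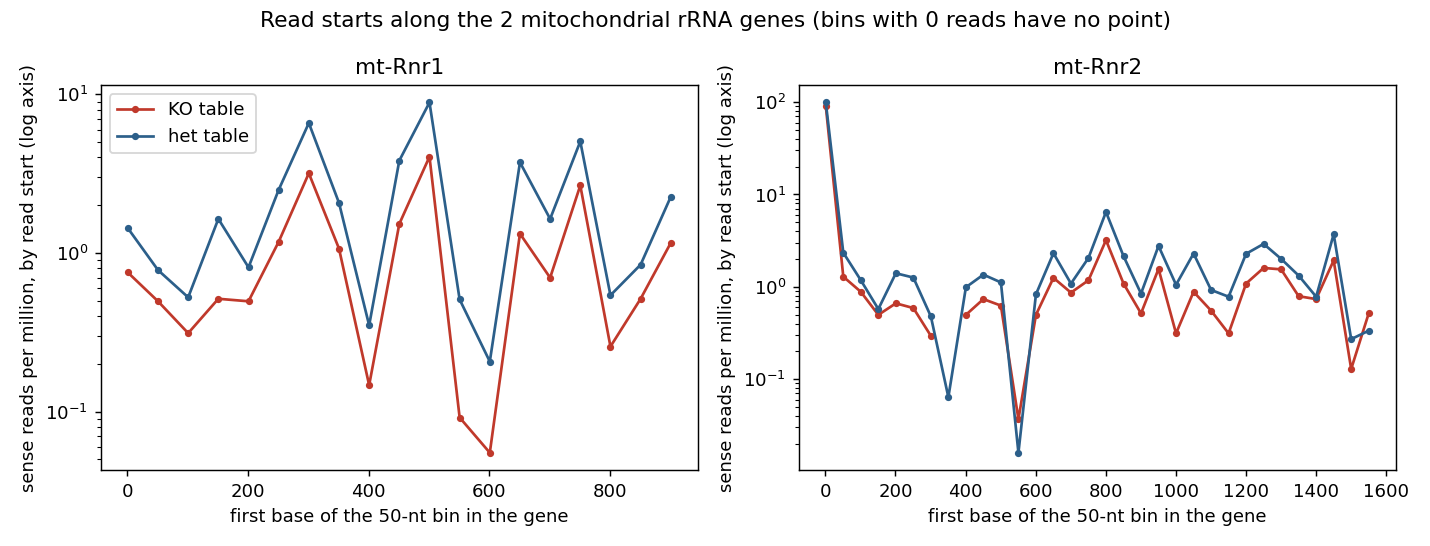
Sense RPM by start of the read, in bins of 50 nt along mt-Rnr1 (left) and mt-Rnr2 (right), on a log axis; red is the KO table and blue the het table, and a bin with 0 reads has no point. The blue line runs above the red one in all 19 bins of mt-Rnr1 with reads and in 30 of 32 bins of mt-Rnr2, whose first bin stands near 100 in both tables.

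The protein-coding genes encode subunits of the respiratory chain and of ATP synthase, and their reads were few and scattered. The gene mt-Co1, the core subunit of cytochrome c oxidase, led with 563 reads in the KO table and 993 in the het table, 10.4 and 15.8 RPM. Its partner subunit mt-Co2 had 233 and 469 reads. The complex I subunit mt-Nd5 had 236 and 445, the complex III subunit mt-Cytb 131 and 308, and the complex I subunits mt-Nd1 and mt-Nd4 121 and 270, and 117 and 272. Of the rest, mt-Nd2, mt-Atp8, mt-Nd3, mt-Nd4l and mt-Nd6 each had under 200 sense reads over both tables. Per length, mt-Co2 and mt-Co1 stood first and second with values close to each other, 0.626 and 0.670 RPM per 100 nt in the KO table and 1.09 and 1.02 in the het table, so that their order turned between the tables.

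Reads of mRNA genes seldom lay at an end of the annotated gene. Not every such end borders a tRNA: mt-Atp6 begins inside mt-Atp8, mt-Nd4 inside mt-Nd4l, and mt-Co3 on the last base of mt-Atp6. Over the class, 2.48% started at base 1 and 0.242% ended in the last 5 bases. The exception by share was mt-Nd3, a small complex I subunit behind mt-Tg, with 69.5% of its 95 reads at base 1. In mt-Atp8 base 1 held 22.2% of 72 reads and in mt-Co2 4.56% of 702. The leading start of mt-Co1 was base 826 with 12.9%, and 476 of its 1545 bases were used as a start. With each mRNA gene cut into 10 equal stretches, every stretch held reads, from 4.26% in the last to 14.7% in the sixth in the KO table.

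All 13 mRNA genes had lower levels in the KO table under each of the 3 scalings, and per all reads the interval of the ratio lay below 1 for 9. Of the 8 with at least 200 sense reads it lay below 1 for 8, beside 39.6% of the annotated genes with as many reads, of which 57.5% were lower. These 2 shares are per all reads, and the other scalings move every gene down. For mt-Cytb the levels were 2.41 and 4.91 RPM, a log2 ratio of -1.02, and for mt-Nd4 2.15 and 4.33 RPM, a log2 ratio of -1.01. For mt-Nd1 the log2 ratio was -0.95, for mt-Co2 -0.80, for mt-Nd5 -0.71 and for mt-Co1 -0.61. On reads without a match to another gene, 8 of the 9 mRNA genes that had any were lower and mt-Nd3 was higher, with 37 and 35 reads. Reads at base 1 numbered 69 in the KO table and 64 in the het table, a ratio of 1.24 (0.873 to 1.78), against 0.596 for reads starting later. The ratio of base-1 reads rests on few reads and its interval includes 1.

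Few members passed a log2 ratio of 1 in size, and the count has to be read against all genes. On sense reads, 26 members had at least 200 reads over both tables and 3 of them, mt-Rnr1, mt-Nd4 and mt-Cytb, were at -1 or below, beside 2.56% of 11041 annotated genes past 1 in either direction and 2.55% at -1 or below. Counting both strands, as the rule for members does, 1 of 27 (mt-Rnr1) was past 1 in size, beside 3.06% of 12280 genes. Scaled to miRNA reads this became 6 of 27, beside 4.94% of those 12280 genes, under a scaling that moves every gene down. On sense reads of 24 to 32 nt it was 1 of 21 (mt-Rnr1 again), beside 0.323% of 8974 genes. The members are few, and no test of these counts was run. For mt-Rnr1 alone, 2.05% of the 11041 genes were at or below its log2 ratio on sense reads. On sense reads of 24 to 32 nt it was 0.0891% of the 8974 genes.

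The medians lay on either side of that of all genes. Over the 16 tRNA genes that reached 200 sense reads, the median log2 ratio was 0.31 (-0.21 to 0.75), and over the 8 such mRNA genes it was -0.78 (-1.02 to -0.41). The median of all 11041 annotated genes was -0.06, with 5% of them below -0.72 and 5% above 0.41. For sense reads of 24 to 32 nt, where short reads cannot enter, the medians were 0.34 over 14 tRNA genes and -0.62 over 5 mRNA genes, beside 0.11 over all genes, of which 5% lay below -0.23.

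**Figure D5:**
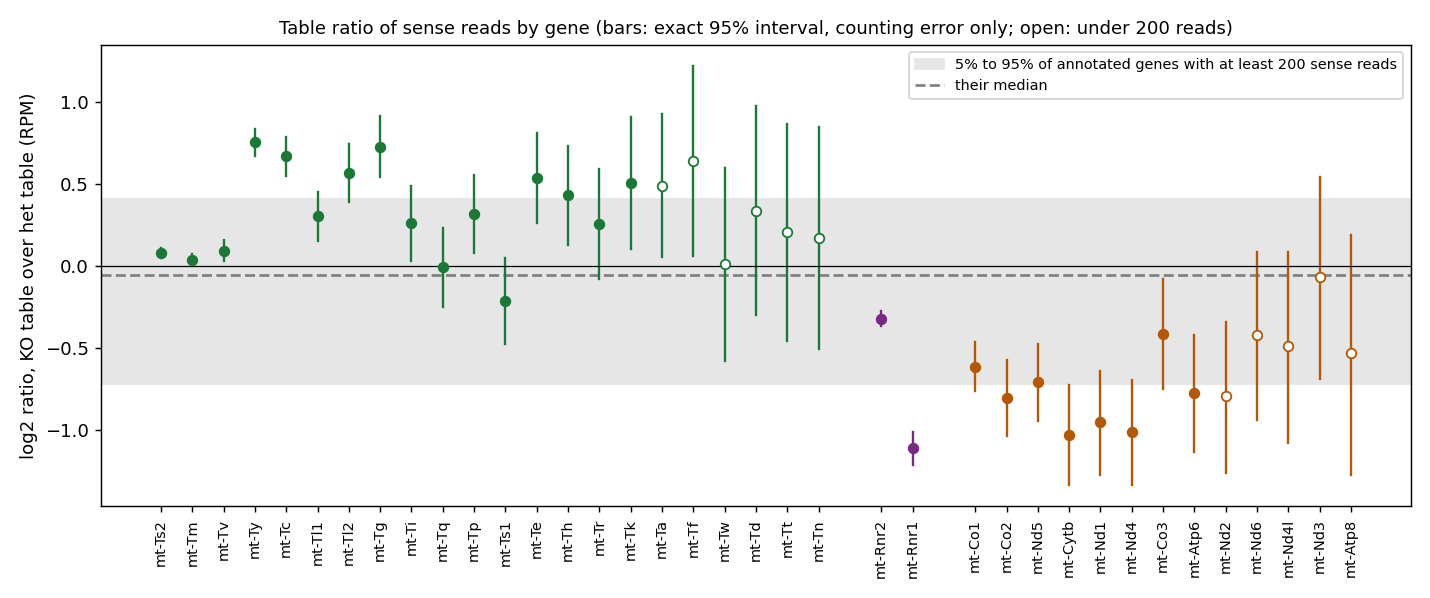
Log2 ratio of sense reads, KO table over het table (RPM), for the 37 genes with exact 95% intervals for counting error; open points had under 200 reads over both tables, the grey band spans 5% to 95% of the 11041 annotated genes with at least 200 sense reads and the dashed line is their median of -0.06. The tRNA genes (green) lie mostly above 0 with mt-Ty highest at 0.75 (20 of 22 here, 14 when scaled to miRNA reads), and the rRNA (purple) and mRNA genes (orange) lie below 0 with mt-Rnr1 lowest at -1.11.

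The tRNA log2 ratio lay above those of rRNA and mRNA at 15 of 15 lengths, while rRNA lay above mRNA at 6 and below it at 9. Levels of rRNA and of mRNA reads were lower in the KO table at 15 of 15 lengths, with log2 ratios from -1.23 to -0.18 and from -0.99 to -0.41. Those of tRNA reads, per all reads of the table, were higher at 13 of 15, the exceptions being 21 nt (-0.10) and 22 nt (-0.02). The whole tables were lower at 7 of 15 lengths, down to -1.47 at 18 nt. At 18 nt the tRNA log2 ratio was 0.01, and the leading tRNA fragments of 18 and 19 nt thus did not follow the tables. For reads of 24 to 32 nt the log2 ratios of the classes were 0.24, -0.61 and -0.59 in the order tRNA, rRNA, mRNA.

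Mitochondrial reads did not begin as the tables did. The letter U stood first in 15.0% of mitochondrial reads of the KO table and 14.3% of the het table, against 74.1% and 66.6% of all reads. Primary piRNAs are known for a U at their first base. For mRNA reads the shares were 25.3% and 24.96%, below the U content of those genes (30.03% and 29.9%, weighted by reads), and for rRNA reads they were 8.89% and 11.6%. Abundant single sequences weigh on these shares. With each distinct sequence counted once, they were 27.0% and 26.7% for all mitochondrial reads. For rRNA they were then 26.3% and 25.4%, near the U content of the rRNA genes (26.4% in both tables, weighted by reads). Among mRNA reads of 24 to 32 nt, the share was 24.7% and 27.6%, against 78.9% and 73.7% of all reads of those lengths.

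Pooled by class, reads followed the strand of the gene except in the protein-coding class, while some tRNA genes with few sense reads also had antisense reads. Antisense reads were 0.344% of tRNA reads in the KO table and 0.432% in the het table, and 0.410% and 0.274% of rRNA reads. In the mRNA class they were 20.2% and 17.1%. The gene mt-Nd5 had most of them, 165 and 270, which is 39.0% of its reads (36.1% to 41.9%), spread over 383 distinct sequences. The complex I subunit mt-Nd6, encoded on the other strand, had 35.8% antisense and mt-Nd4 27.6%, from 50 and 98 reads. Among tRNA genes, mt-Ti had 20.2% antisense (17.5% to 23.2%), and mt-Tp, mt-Tq, mt-Ta and mt-Te had between 5.03% and 7.38%. The antisense reads of mt-Ti, 74 and 89, were of another kind: 1 read of 19 nt held 49.1% of them. It ran from base 66 to base 48 of mt-Ti on the opposite strand. On that strand it began directly behind the last encoded base of mt-Tq, a gene of the minus strand. Its origin was not tested. Of antisense reads, 34.2% and 35.8% also matched another annotated gene, so that their origin is not certain. Over all members the antisense level was 11.7 and 14.9 RPM, a log2 ratio of -0.35.

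Many mRNA reads could also come from annotated copies of mitochondrial DNA in the nuclear genome. Of mRNA sense reads, 53.4% in the KO table and 52.6% in the het table matched another gene as well. Over reads of all classes and both strands, the other genes numbered 32, of which 29 were pseudogenes. Every read of mt-Co2, mt-Atp6, mt-Co3 and mt-Nd4l was shared in this way, so their levels cannot be told apart from those of the copies. In sense reads of the other classes sharing was rare, at 1.29% and 1.20% of tRNA and 0.451% and 0.674% of rRNA reads, except for mt-Tl1, where 64.6% also matched a transcript of Cep295. Without shared reads the log2 ratio of mRNA reads was -0.74, that of rRNA reads -0.46 and that of tRNA reads 0.15. Copies outside annotated transcripts were not analysed here.

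Nuclear genes that act on mitochondrial RNA or on piRNAs at the mitochondrial surface were looked at as a list. Of 38 listed names, which can include more than 1 name of a gene, 35 were found as gene names in the annotation. Of these genes, 17 had at least 200 sense reads. Their median log2 ratio was 0.04, beside -0.06 over all 11041 annotated genes with as many reads. Of the 17, 1 was at -1 or below, beside 2.55% of all those genes, and 0 were at 1 or above. The gene at -1 or below was Lars2, the leucyl-tRNA synthetase of mitochondria, whose annotated transcripts matched 191930 and 498621 reads, a log2 ratio of -1.17. Of these, 40.9% and 37.7% also matched another gene, and 55.6% and 52.3% of the reads on its longest transcript started in a single window of 100 nt, so they do not measure the synthetase mRNA alone. The next in abundance were Mterf3, a regulator of mitochondrial transcription (-0.22), Pde12, a phosphodiesterase that removes poly(A) from mitochondrial mRNA (-0.11), and Tdrkh, a Tudor protein of the piRNA pathway (0.09). Between 95.4% and 99.9% of the reads of these 3 also matched another gene, so their values cannot be assigned to them either. Lars2 and these 3 are still part of the count and median above.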

How the data were processed

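Small RNA of 23 dpp testes was deposited as 2 tables, each a list of distinct read sequences with the raw count of reads; the counts are unscaled, as the values show (whole numbers, each sequence once). Adapter trimming, length filter and any aligner of the authors were not given in the sources used here. Reads ran from 18 to 32 nt. Those with an undetermined base (0.188% and 0.190%) were not matched.

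Each distinct read was matched with 0 mismatches to all GENCODE M21 transcripts (GRCm38) on both strands with Python 3.11.15, numba 0.67.0, numpy 2.4.6 and pandas 2.3.3, which placed 26.3% of the KO table and 23.8% of the het table. A read counted in full for each gene it matched, and 2 sequences matched more than 1 mitochondrial gene, so gene sums can exceed class sums by a read. No genome was used. Bases are numbered from 1 at the gene's 5′ end. Counts were divided by the reads of the table and multiplied by 1000000. For log2 ratios 0.5 was added to both counts, for plain ratios nothing. Genes needed 200 reads over both tables to be counted as past 1. Intervals came from scipy 1.17.1 and figures from matplotlib 3.10.9. Read matching and intervals were tested on simulated data. The simulated counts were independent, so this check cannot show how the intervals hold for reads amplified by PCR.

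All members may be named. Described in full were both rRNA genes, the 8 tRNA and 6 mRNA genes with most sense reads, the 3 highest and 3 lowest log2 ratios, the 3 genes with most antisense reads and 4 genes of the pathway list. Members and lists were chosen with earlier results of these data known. Alternatives were other scalings, lengths, read minimums, distinct sequences, unshared reads, leading reads left out, border-crossing reads and CCA tails. Chosen after seeing the data were reads of 18 to 23 nt, the rRNA class without the first base of mt-Rnr2, the tRNA class without mt-Ts2 and mt-Tm, the counts on sense reads, gene directions under other scalings and on unshared reads, sharing among the pathway genes, and the comparison of starts at bases 1 and 3.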

Additional observations from a re-analysis of the deposited data

Results flagged for a closer look

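Reads outside the exact gene matches stood above the limit of 3 reads in both tables. Reads that end a mitochondrial tRNA with the whole CCA, which the genes do not encode, numbered 2534 in the KO table and 2531 in the het table (46.6 and 40.3 RPM). Their log2 ratio was 0.21, and mt-Tv held 1778 and 1753 of them. Reads that run across the border of neighbouring mitochondrial genes numbered 23 and 34, and 8 and 12 of these had at least 5 bases on each side. They were counted at 21 of 36 borders, those where the annotated genes touch or overlap.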

How the results depend on the processing

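Of the log2 ratios between the tables, those of rRNA, mRNA and antisense reads kept their sign in every alternative run, tRNA reads in 9 of 10 and all mitochondrial reads in 6 of 9. The main values were 0.00 for all mitochondrial reads, 0.15 for tRNA, -0.47 for rRNA, -0.72 for mRNA and -0.35 for antisense reads. Scaled to reads over miRNA hairpins, these became -0.24, -0.080, -0.70, -0.95 and -0.58, and 6 of 27 genes were at or past 1 in size in place of 1, beside 4.94% of all annotated genes with as many reads in place of 3.06%. Scaled to reads of 24 to 32 nt, the first 4 became -0.089, 0.070, -0.55 and -0.80. Against a count expected length by length, all 5 became 0.31, 0.49, -0.22, -0.50 and -0.075. With reads of 24 to 32 nt alone they were 0.049, 0.24, -0.61, -0.59 and -0.18, and with reads of 18 to 23 nt -0.048, 0.086, -0.37, -0.87 and -0.52. Distinct sequences gave -0.51 for all and -0.68 for rRNA reads. Without each gene's most abundant sequence these 2 were -0.084 and -0.52. Without reads shared with another gene, all mitochondrial reads gave 0.014. For tRNA reads, CCA tails gave 0.18 and leaving out mt-Ts2 and mt-Tm 0.38. Without the first base of mt-Rnr2, rRNA reads gave -0.96. Sense reads put 3 genes at or past 1. The cause of these shifts was not tested beyond what each setting changes. No paired analysis was possible because there was 1 library per table. Genes with few reads, such as mt-Tn with 79, are limited by depth.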
